A study of Mus musculus with 10 samples.

Results

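Voltage-gated calcium and sodium channels open when a neuron's membrane is depolarised, and the genes for their subunits were examined in cultured mouse cortical neurons. The members were all probe sets with a single gene symbol naming a pore-forming, α2δ, β or γ subunit of a calcium channel or an α or β subunit of a sodium channel, and the brightest probe set stood for a gene measured by several. This gave 36 genes of 22180 measured. Of the 40 such genes in the mouse annotation, 4 were not analysed here. A second probe set was present for Cacnb2, Cacnb4 and Cacng2 and was used only in the alternative that averages probe sets.

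The neurons came from cortices dissected at embryonic day 14.5 to 15.5 and were held in Neurobasal medium with B27 for 7 days. They lacked ATF4 or were wildtype, and then received 5 µM sodium arsenite or vehicle for 12 hours. ATF4 is the transcription factor whose translation rises when cells under stress slow protein synthesis, and arsenite is a thiol-reactive compound that causes such stress. There were 2 ATF4-deficient arsenite arrays, 2 ATF4-deficient vehicle arrays, 4 wildtype arsenite arrays and 2 wildtype vehicle arrays, each an Affymetrix whole-transcript array with log2 values from robust multiarray average (RMA). The labels name no allele, do not say in which cells ATF4 was lost and do not say whether embryos were pooled, and they call the samples biological replicates without naming separate litters or cultures, so p-values measure the spread between these samples.

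Atf4 itself averaged 7.62 ± 0.11 (SD, n = 2) in ATF4-deficient arsenite arrays and 7.57 ± 0.12 (SD, n = 2) in ATF4-deficient vehicle arrays, against 9.69 ± 0.21 (SD, n = 4) in wildtype arsenite and 9.32 ± 0.34 (SD, n = 2) in wildtype vehicle arrays, with no overlap between the genotypes. Replicate 2 of the ATF4-deficient arsenite group had a first principal component score over all genes of 29.4, outside the -18.2 to 8.70 of the other 9 arrays, and the calls that use it are given with and without it for the channel genes and for the other genes whose response to arsenite in ATF4-deficient neurons is named. The genes examined beside the members were cell type markers, lists of genes that work with the channels, Atf4 and genes near these loci. They had 37 calls over all comparisons, and not all were kept without that replicate. Calls over all other genes are not part of that number. All 7 markers of neurons were above the dim level, which is the 90th percentile of 1390 olfactory and vomeronasal receptor genes (6.64 on the log2 scale), and their summed signal (the values taken out of the log2 scale) was 20000 to 22900 in ATF4-deficient arsenite, 21400 to 23000 in ATF4-deficient vehicle, 19700 to 23000 in wildtype arsenite and 23000 to 24100 in wildtype vehicle arrays. Markers of astrocytes and of the oligodendrocyte lineage were spread more widely between groups. The summed signal of 8 astrocyte markers was 1200 to 1640, 1250 to 1680, 1820 to 2950 and 2890 to 3450 in the same order of groups, with S100b under the dim level and none listed at 0. That of 6 oligodendrocyte lineage markers was 864 to 1010, 1120 to 1150, 1160 to 1440 and 1580 to 1970. In bulk samples fewer cells of a type and less RNA per cell cannot be told apart.

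A calcium channel is built on an α1 subunit, which forms the pore and senses voltage. L-type channels link depolarisation to gene expression, P/Q-, N- and R-type channels let in the calcium that releases transmitter, and T-type channels open at more negative voltages and support burst firing. The α2δ and β subunits bring the α1 subunit to the membrane and tune its gating, and most neuronal γ subunits act as TARPs, auxiliary proteins of AMPA-type glutamate receptors. A sodium channel has an α subunit that carries the rising phase of the action potential and β subunits that tune it and bind other cells or the matrix.

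**Figure D1:**
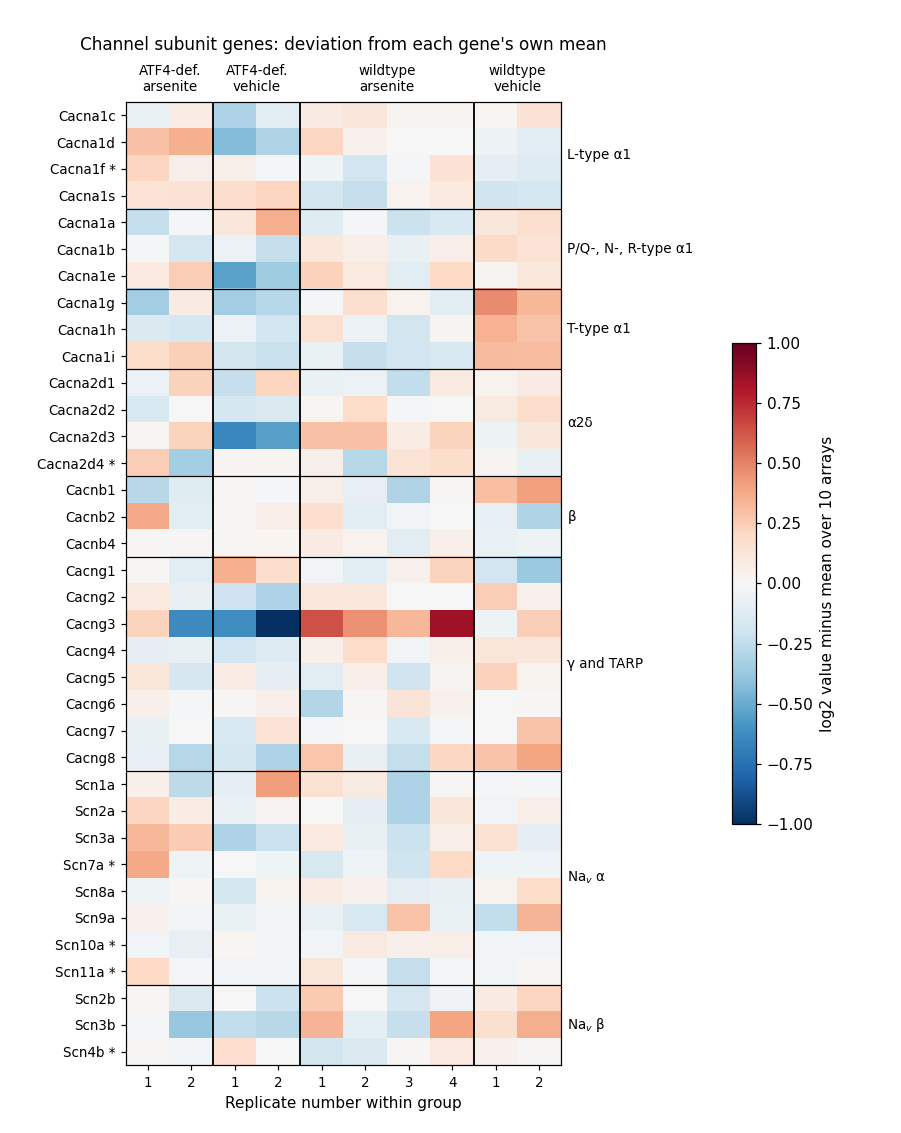
Log2 values of the 36 members on the 10 arrays, each minus the member's own mean, with genes in rows by subunit class and arrays in columns by group. Red is above and blue below the member's mean, and an asterisk marks the 6 members under the dim level; Cacna1d, Cacna1e and Cacna2d3 are at their lowest in the ATF4-deficient vehicle arrays, and Cacng3 has the widest range.

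Most members gave a signal above the dim level and most did not pass a test. Of the 36, 30 lay above the dim level on average; the 6 below it were Cacna1f (6.40), Cacna2d4 (6.34), Scn4b (6.11), Scn10a (5.59), Scn7a (5.38) and Scn11a (5.23). Scn10a and Scn11a are known from sensory neurons and Cacna1f from the retina. A member was called when its adjusted p was under 0.05 in limma, a linear model with moderated variances fitted to all 22180 genes and 10 arrays. Under that rule 6 members were called in at least 1 of 7 comparisons, and 30 in none. The share of all genes called in at least 1 comparison was not counted, so this number has no background. Shares for each comparison are given below. The 7 comparisons share arrays, so they are not independent of each other.

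The arsenite comparisons ask how the channel genes respond to the stress with and without ATF4. In ATF4-deficient neurons 3 of 36 members were called (8.33%), beside 1.15% of all genes, and Cacna1d, Cacna1e and Cacna2d3 rose; without replicate 2 of the ATF4-deficient arsenite group, and likewise without either ATF4-deficient vehicle array, 0 were called. In wildtype neurons 1 of 36 was called (2.78%), beside 0.482% of all genes, and it was Cacna1i, which fell. The median arsenite difference of the members was 0.061 log2 in ATF4-deficient and -0.059 in wildtype neurons, against medians of -0.011 and -0.017 over all genes. Averaged over the genotypes, Cacna1d and Cacna2d3 rose with arsenite (5.56% of the members, beside 3.07% of all genes). Beside these differences 0 of the 8 astrocyte markers were called in either genotype alone. Their differences had a median of -0.09 log2 in ATF4-deficient neurons, with 5 of 8 below 0, and of -0.47 in wildtype neurons, with 8 of 8 below 0. The oligodendrocyte lineage marker Pdgfra fell in wildtype neurons (-0.76 log2, SE 0.14, limma adjusted p = 0.0464). Averaged over the genotypes, the astrocyte marker Gfap fell (-0.37, SE 0.08, adjusted p = 0.0403), Pdgfra fell (-0.59, SE 0.11, adjusted p = 0.0152) and Slc17a6, a marker of excitatory neurons, rose (0.31, SE 0.07, adjusted p = 0.0354). Without arsenite replicate 2 of the ATF4-deficient group these 3 average differences were -0.27, -0.57 and 0.33, and none of them passed. The Pdgfra difference in wildtype neurons was then -0.76 and did not pass either. The 5 markers of excitatory neurons went both ways on average over genotypes, with 3 above 0, 2 below 0 and a median of 0.01 log2. Among them Slc17a7 had a difference of -0.40 (SE 0.11), which did not pass (limma adjusted p = 0.0778).

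The genotype comparisons ask what lacking ATF4 changes under each treatment. Under arsenite 0 of 36 members were called, beside 0.343% of all genes, and 4 had an unadjusted p under 0.05 in limma, beside 12.1% of all genes. Under vehicle Cacna1i was the single call (2.78% of the members, beside 0.433% of all genes). Many members leaned the same way there: 16 of 36 were lower in ATF4-deficient neurons at an unadjusted p under 0.05, beside 6.39% of all genes, and the members' median was -0.162 log2 against 0.004 over all genes. Averaged over the treatments Cacna1g, Cacna2d3 and Cacng3 were lower in ATF4-deficient neurons (8.33% of the members, beside 1.82% of all genes). The interaction, which is the arsenite difference in ATF4-deficient neurons minus that in wildtype neurons, called 0 members and 0% of all genes in limma; 8 members had an unadjusted p under 0.05, beside 6% of all genes. Beside these genotype differences stood the marker values above: of the 8 astrocyte markers 0 were called under arsenite, Gfap was lower in ATF4-deficient neurons under vehicle and 4 were lower on average over treatments, and of the 6 oligodendrocyte lineage markers 1, 0 and 3 were lower. Markers of neurons moved on average over treatments as well, in both directions. Tubb3 was lower in ATF4-deficient neurons (-0.44 log2, SE 0.07, adjusted p = 0.0123), as were the inhibitory neuron marker Dlx2 (-0.38, SE 0.07, adjusted p = 0.0245) and the progenitor marker Sox2 (-0.60, SE 0.12, adjusted p = 0.0373). Nefl (0.49, SE 0.10, adjusted p = 0.0347) and Slc17a6 (0.40, SE 0.07, adjusted p = 0.018) were higher. Without arsenite replicate 2 of the ATF4-deficient group the average differences of Tubb3, Sox2, Gfap, Slc1a3 and Olig2 still passed, and those of Dlx2, Nefl, Slc17a6, Aldoc, Aqp4, Olig1 and Pdgfra did not (adjusted p = 0.0541 to 0.119), nor did the Olig2 difference under arsenite (-0.76, adjusted p = 0.297). The part of any of these cells in the channel values was not tested.

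Promoter sequence was read for 28 of the 36 members, as the 250 bases before each of 38 annotated start sites in RefSeq's GRCm38.p6 tables. Cacna1a, Cacna1g, Cacna1h, Cacna2d4, Cacng1, Cacng4, Scn3a and Scn3b were not matched. Both strands were searched for TGATGNAA, the letters of the C/EBP-ATF response element that ATF4 can bind, for the cyclic AMP response element TGACGTCA, for the antioxidant response element TGACNNNGC and for the AP-1 site TGANTCA. Of all 32851 promoter windows of this length, 3.45%, 1.55%, 10.2% and 6.75% held these, and of the 38 member windows 2 (Cacna1c and Scn9a), 0, 2 (Cacna1c and Scn8a) and 1 (Cacng5) did. The windows of the members called for arsenite are shown first, since none of them holds any of the 4 motifs, followed by those Cacna1c windows that do. Cacna1c was called in no comparison. Capitals mark a match on the opposite strand, an antioxidant response element in the upstream Cacna1c window and a C/EBP-ATF response element in the downstream one.
Cacna1i (GRCm38.p6 chr15:80286988-80287237, forward strand): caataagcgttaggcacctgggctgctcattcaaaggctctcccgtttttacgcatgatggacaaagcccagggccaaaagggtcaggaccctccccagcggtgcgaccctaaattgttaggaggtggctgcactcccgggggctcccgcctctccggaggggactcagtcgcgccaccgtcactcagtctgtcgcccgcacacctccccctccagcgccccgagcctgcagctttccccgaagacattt
Cacna1d, upstream start (GRCm38.p6 chr14:30491157-30491406, reverse strand): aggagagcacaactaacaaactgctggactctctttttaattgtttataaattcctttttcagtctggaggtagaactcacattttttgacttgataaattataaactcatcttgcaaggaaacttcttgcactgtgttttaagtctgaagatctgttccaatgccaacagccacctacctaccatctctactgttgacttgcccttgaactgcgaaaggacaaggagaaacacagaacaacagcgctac
Cacna1d, downstream start (GRCm38.p6 chr14:30353487-30353736, reverse strand): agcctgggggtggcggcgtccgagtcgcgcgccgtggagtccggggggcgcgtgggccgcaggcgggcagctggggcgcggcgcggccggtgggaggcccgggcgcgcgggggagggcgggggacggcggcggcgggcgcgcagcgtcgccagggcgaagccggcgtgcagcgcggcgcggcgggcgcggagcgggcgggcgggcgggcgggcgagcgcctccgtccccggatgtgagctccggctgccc
Cacna1e (GRCm38.p6 chr1:154725921-154726170, reverse strand): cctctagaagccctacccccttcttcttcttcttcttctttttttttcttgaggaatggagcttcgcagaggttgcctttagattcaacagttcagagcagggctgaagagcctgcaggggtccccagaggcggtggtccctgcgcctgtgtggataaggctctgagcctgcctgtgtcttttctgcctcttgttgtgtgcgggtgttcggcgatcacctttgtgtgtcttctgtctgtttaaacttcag
Cacna2d3 (GRCm38.p6 chr14:29721865-29722114, reverse strand): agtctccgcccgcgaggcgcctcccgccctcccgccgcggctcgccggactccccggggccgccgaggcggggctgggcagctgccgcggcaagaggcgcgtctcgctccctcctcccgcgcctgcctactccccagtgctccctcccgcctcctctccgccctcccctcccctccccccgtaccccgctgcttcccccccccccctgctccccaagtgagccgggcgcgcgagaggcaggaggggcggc
Cacna1c, upstream window (GRCm38.p6 chr6:119196410-119196659, reverse strand): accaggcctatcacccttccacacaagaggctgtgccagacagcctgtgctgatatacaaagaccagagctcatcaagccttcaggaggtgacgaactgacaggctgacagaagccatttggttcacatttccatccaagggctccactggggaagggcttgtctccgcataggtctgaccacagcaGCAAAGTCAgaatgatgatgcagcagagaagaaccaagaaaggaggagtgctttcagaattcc
Cacna1c, downstream window (GRCm38.p6 chr6:118757975-118758224, reverse strand): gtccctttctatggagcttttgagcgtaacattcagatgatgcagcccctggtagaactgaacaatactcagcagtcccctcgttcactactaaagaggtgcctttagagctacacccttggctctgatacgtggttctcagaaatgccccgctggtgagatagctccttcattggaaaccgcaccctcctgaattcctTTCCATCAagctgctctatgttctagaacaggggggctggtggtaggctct

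The windows also differ in composition. Cacna1d has an upstream start with 39.6% G and C and a downstream one with 86.4%, Cacna2d3 has 80%, Cacna1i 62.4% and Cacna1e 52%, against a median of 52.4% over all windows. The arrays do not say which start was used.

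**Figure D2:**
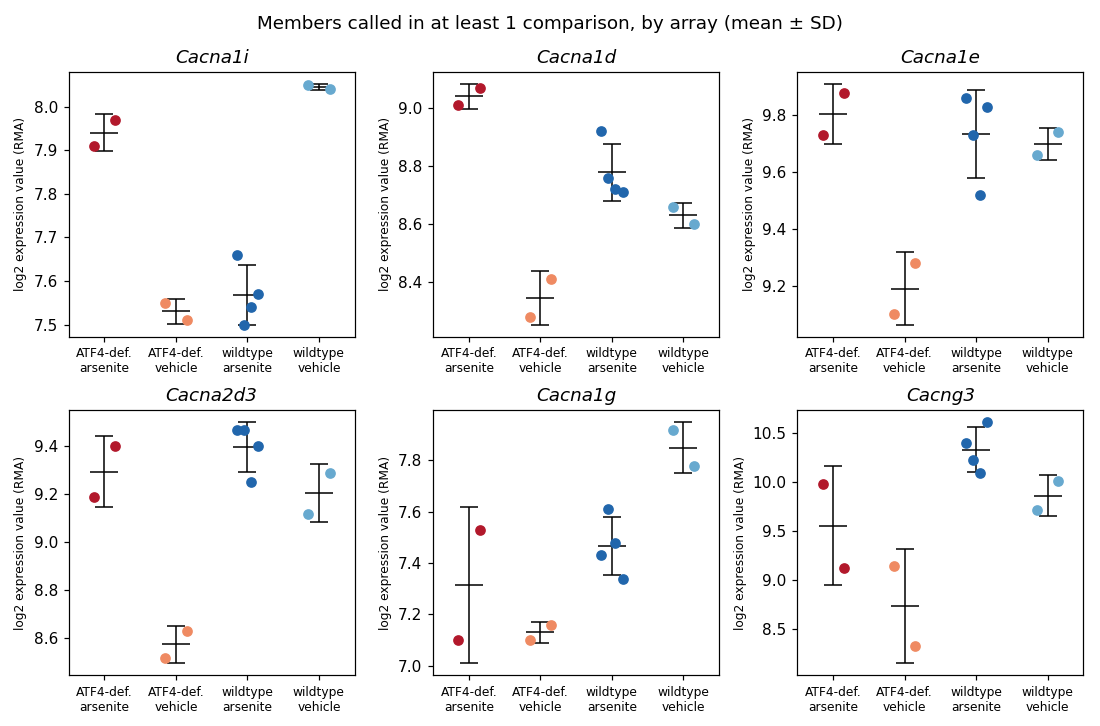
Log2 expression values of the 6 members called in at least 1 comparison, a point per array, with the group mean and SD; groups run from ATF4-deficient arsenite to wildtype vehicle and each panel has its own axis. Cacna1i is high in ATF4-deficient arsenite and wildtype vehicle arrays and low in the other groups, whereas Cacna1d, Cacna1e and Cacna2d3 are lowest in ATF4-deficient vehicle arrays.

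Cacna1d, which encodes an L-type α1 subunit that opens at fairly negative voltages, read 9.01 and 9.07 in ATF4-deficient arsenite arrays and 8.28 and 8.41 in ATF4-deficient vehicle arrays. It read 8.92, 8.76, 8.72 and 8.71 in wildtype arsenite arrays and 8.66 and 8.60 in wildtype vehicle arrays. All arsenite arrays lay above the vehicle arrays of their genotype, with the wider gap in ATF4-deficient neurons. There it rose 1.61-fold (0.69 log2, SE 0.10, limma adjusted p = 0.0137), against 0.15 (SE 0.09) in wildtype neurons, and the interaction was 0.54 (SE 0.14, adjusted p = 0.709). Averaged over genotypes the rise was 0.42 (SE 0.07, adjusted p = 0.00944), and it passed with each of the 10 arrays left out in turn (adjusted p = 0.0141 to 0.0469). The ATF4-deficient arsenite arrays were above and the ATF4-deficient vehicle arrays below every wildtype array of the same treatment. The rise in ATF4-deficient neurons was 0.66 log2 (adjusted p = 0.0947) when arsenite replicate 2 was left out, and without ATF4-deficient vehicle replicates 1 and 2 it was 0.63 and 0.75 (adjusted p = 0.099 and 0.0597).

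The other L-type genes passed no test. Cacna1c, the main L-type gene of brain and heart and the brightest L-type probe set here, read 9.71 and 9.85 in ATF4-deficient arsenite and 9.47 and 9.67 in ATF4-deficient vehicle arrays, and 9.80 to 9.92 over the 6 wildtype arrays. Its arsenite difference was 0.21 log2 (SE 0.10, limma adjusted p = 0.466) in ATF4-deficient and -0.01 (SE 0.09, adjusted p = 0.977) in wildtype neurons. Cacna1s, the L-type gene of skeletal muscle, lay near the dim level at 6.86 to 7.31; it was 0.21 log2 (SE 0.10) higher in ATF4-deficient than wildtype neurons under arsenite and 0.38 (SE 0.12) under vehicle, with adjusted p values of 0.45 and 0.247.

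Among the α1 subunits of the presynaptic channels, Cacna1e, the R-type gene, read 9.73 and 9.88 in ATF4-deficient arsenite arrays, against 9.10 and 9.28 in ATF4-deficient vehicle arrays. Wildtype arsenite arrays held 9.86, 9.73, 9.52 and 9.83, and wildtype vehicle arrays 9.66 and 9.74. The ATF4-deficient vehicle arrays were the lowest of the 10, and the ATF4-deficient arsenite arrays lay within or just above the wildtype range. The rise with arsenite in ATF4-deficient neurons was 1.53-fold (0.61 log2, SE 0.13, limma adjusted p = 0.0497), and the wildtype difference was 0.03 (SE 0.11). That call sat at the threshold. It was kept in 2 of 7 processing alternatives, with dim genes left out and with the replicate block, and had adjusted p values of 0.0509 to 0.28 in the other 5. It was lost without each array in turn other than wildtype arsenite replicate 3, with rises of 0.52 to 0.71 log2 and adjusted p values up to 0.312; with ATF4-deficient arsenite replicate 2 left out, it was 0.54 (adjusted p = 0.254).

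Cacna1a, the P/Q-type gene, had lower values with arsenite in each genotype. It read 8.77 and 8.99 in ATF4-deficient arsenite arrays and 9.12 and 9.37 in ATF4-deficient vehicle arrays, and 8.88, 8.99, 8.79 and 8.85 in wildtype arsenite arrays against 9.12 and 9.17 in wildtype vehicle arrays. Neither pair of groups overlapped, and the average difference was -0.32 log2 (SE 0.08), which did not pass (limma adjusted p = 0.0539). It did pass with dim genes left out (adjusted p = 0.0338). Cacna1b, the N-type gene and the brightest of these probe sets, read 9.42 to 9.85 over the 10 arrays; its genotype difference averaged -0.22 (SE 0.07, adjusted p = 0.153).

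**Figure D3:**
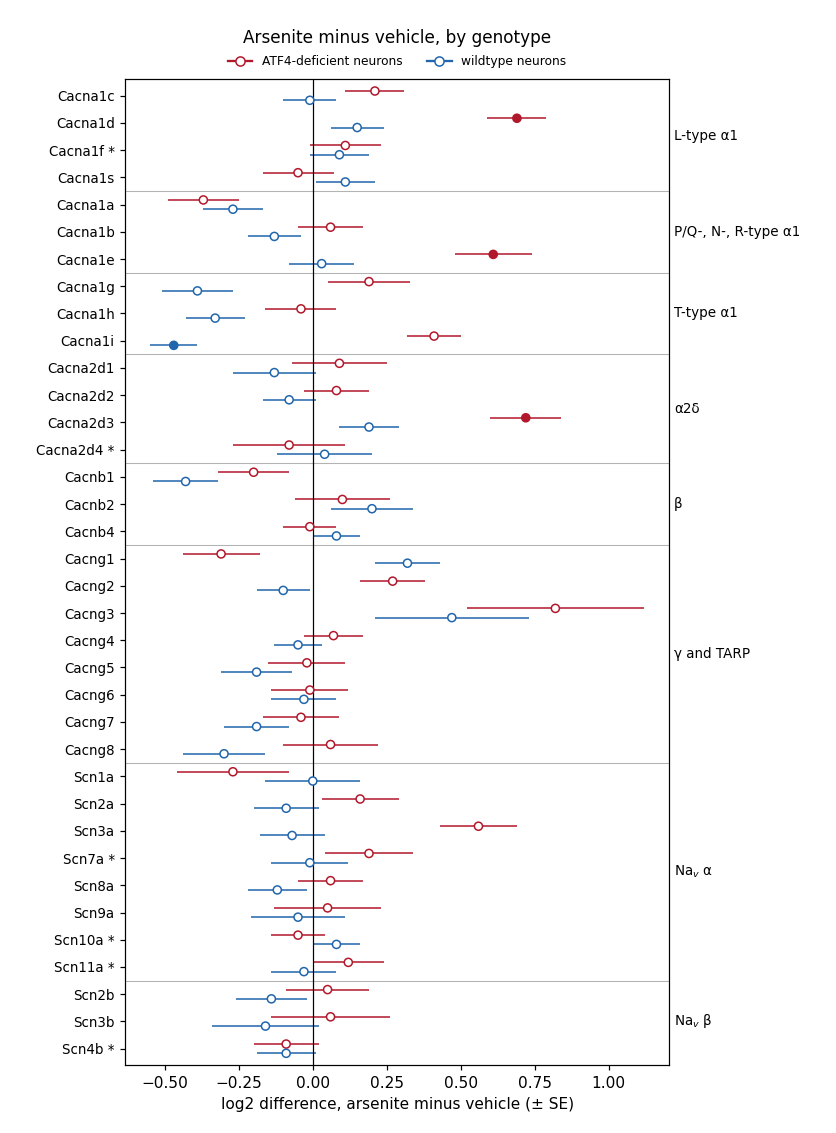
Log2 difference between arsenite and vehicle, with SE, for the 36 members by subunit class, in ATF4-deficient (red) and wildtype (blue) neurons; filled points passed an adjusted p of 0.05 in limma and an asterisk marks members under the dim level. Cacna1d, Cacna1e and Cacna2d3 are filled on the right in ATF4-deficient neurons and Cacna1i on the left in wildtype neurons.

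The T-type genes had their highest group means in wildtype vehicle arrays, and Cacna1i stood out. It read 7.91 and 7.97 in ATF4-deficient arsenite arrays against 7.55 and 7.51 in ATF4-deficient vehicle arrays. It read 7.66, 7.50, 7.54 and 7.57 in wildtype arsenite arrays against 8.05 and 8.04 in wildtype vehicle arrays. The order of treatments was opposite in the genotypes, with no overlap in either. In wildtype neurons it fell by 0.47 log2 with arsenite (SE 0.08, limma adjusted p = 0.0381). In ATF4-deficient neurons the difference was 0.41 (SE 0.09), which did not pass (adjusted p = 0.0657; 0.0405 with dim genes left out; 0.38 log2 and adjusted p = 0.265 with arsenite replicate 2 left out). The interaction was 0.88 log2 (SE 0.12), the largest in size among the members, with an unadjusted p of 1.7e-05 that did not pass over all genes (limma adjusted p = 0.34).

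The genotype difference of Cacna1i had opposite signs by treatment. It was 0.37 log2 (SE 0.08, limma adjusted p = 0.102) under arsenite, and under vehicle it was -0.51 (SE 0.09, adjusted p = 0.045), which is a called fall. The Cacna1i promoter window given above holds none of the 4 motifs searched. Each of the 2 Cacna1i calls was lost when any 1 of the 10 arrays was left out, although the size hardly moved: the wildtype arsenite difference stayed between -0.50 and -0.45 log2 (adjusted p = 0.0505 to 0.297), and the vehicle genotype difference between -0.53 and -0.49 (adjusted p = 0.0529 to 0.309).

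Cacna1i lies close to Atf4. In the order of protein-coding genes on mouse chromosome 15 it is the second gene after Atf4, with Rps19bp1 between them, as read after the values were seen. Rps19bp1, which encodes a ribosomal protein S19-binding protein, read 6.71 and 6.74 in ATF4-deficient arsenite and 6.89 and 6.59 in ATF4-deficient vehicle arrays, against 7.56, 7.44, 7.45 and 7.37 in wildtype arsenite and 7.79 and 7.61 in wildtype vehicle arrays. It was lower in ATF4-deficient neurons under each treatment, with a difference of -0.73 log2 under arsenite (SE 0.10, limma adjusted p = 0.0165) and -0.96 under vehicle (SE 0.12, adjusted p = 0.0138). Enthd1, the next gene beyond Cacna1i and under the dim level on average (6.34), differed by -0.05 (SE 0.08) and -0.15 (SE 0.09), and Mief1, on the other side of Atf4, by -0.22 (SE 0.10) and -0.09 (SE 0.11), with adjusted p values of 0.401 to 0.847. Rpl3, a ribosomal protein gene and the fifth gene on that other side, was higher in ATF4-deficient neurons on average over treatments (0.66, SE 0.11, adjusted p = 0.0129), with 0.54 (SE 0.14, adjusted p = 0.163) under arsenite and 0.78 (SE 0.16, adjusted p = 0.0621) under vehicle. Without arsenite replicate 2 of the ATF4-deficient group the arsenite difference of Rps19bp1 was -0.74 (adjusted p = 0.136). Whether the altered allele bears on its neighbours was not tested.

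**Figure D4:**
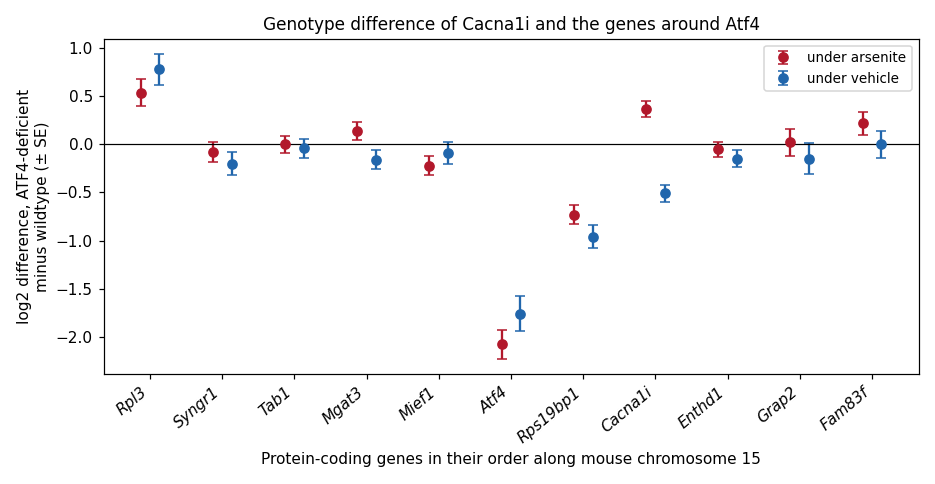
Log2 difference between ATF4-deficient and wildtype neurons, with SE, under arsenite (red) and vehicle (blue) for Atf4 and the 5 protein-coding genes on each side, in chromosome order. Atf4 and Rps19bp1 are below 0 under each treatment, Rpl3 is above 0 under each treatment, and Cacna1i is above 0 under arsenite and below 0 under vehicle.

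Cacna1g, a T-type gene of thalamic and cortical neurons, read 7.10 and 7.53 in ATF4-deficient arsenite and 7.10 and 7.16 in ATF4-deficient vehicle arrays, and 7.43, 7.61, 7.48 and 7.34 in wildtype arsenite and 7.92 and 7.78 in wildtype vehicle arrays. The genotypes overlapped under arsenite and stood apart under vehicle. Averaged over treatments it was lower in ATF4-deficient neurons, with a difference of -0.43 log2 (SE 0.09, limma adjusted p = 0.0429). Among the 10 fits with an array left out it ran from -0.54 to -0.33 (adjusted p = 0.03 to 0.158), and the call was kept only when arsenite replicate 2 of the ATF4-deficient group was left out (-0.54, adjusted p = 0.03). Under vehicle alone it was -0.72 (SE 0.14, adjusted p = 0.057; 0.0361 with dim genes left out). Cacna1h, the brightest T-type probe set, read 8.32 and 8.29 in ATF4-deficient arsenite, 8.41 and 8.27 in ATF4-deficient vehicle, 8.62, 8.41, 8.28 and 8.49 in wildtype arsenite and 8.81 and 8.75 in wildtype vehicle arrays, and its average genotype difference of -0.30 (SE 0.08) did not pass (adjusted p = 0.0884).

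Of the α2δ genes, Cacna2d3, which encodes a subunit that raises the number of channels at presynaptic sites, was called in 3 of the 7 comparisons. It read 9.19 and 9.40 in ATF4-deficient arsenite arrays and 8.52 and 8.63 in ATF4-deficient vehicle arrays. It read 9.47, 9.47, 9.25 and 9.40 in wildtype arsenite arrays and 9.12 and 9.29 in wildtype vehicle arrays. The ATF4-deficient vehicle arrays were again the lowest, and the ATF4-deficient arsenite arrays lay within the wildtype range. The rise was 1.64-fold (0.72 log2, SE 0.12, limma adjusted p = 0.0202), beside 0.19 (SE 0.10) in wildtype neurons. With arsenite replicate 2 left out it was 0.61 (adjusted p = 0.14), and it was 0.66 and 0.77 without ATF4-deficient vehicle replicates 1 and 2 (adjusted p = 0.132 and 0.0896).

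The genotype difference of Cacna2d3 averaged -0.36 log2 (SE 0.08, limma adjusted p = 0.041), a call kept in 1 of 10 fits with an array left out, the fit without wildtype arsenite replicate 3 (-0.42 to -0.31 over the 10 fits, adjusted p up to 0.194; 0.0579 without arsenite replicate 2 of the ATF4-deficient group). Under arsenite alone the difference was -0.10 (SE 0.10, limma adjusted p = 0.727). Under vehicle alone the difference was -0.63 (SE 0.12) and just missed the threshold (adjusted p = 0.0508, or 0.0312 with dim genes left out). Averaged over genotypes it rose with arsenite by 0.45 (SE 0.08, adjusted p = 0.0116), and by 0.43 and 0.41 without ATF4-deficient vehicle replicate 1 and wildtype vehicle replicate 1 (adjusted p = 0.0543 and 0.0619). Cacna2d1, the brightest α2δ probe set and a target of the drug gabapentin, read 9.83 to 10.31 with overlapping groups and differed by 0.16 log2 or less in size in each single comparison of treatment or genotype. Cacna2d3 and Cacna1d are near neighbours on chromosome 14, with 5 protein-coding genes between them (Lrtm1, Selenok, Actr8, Il17rb and Chdh). The arsenite differences of these 5 in ATF4-deficient neurons were -0.11 to 0.15 log2. Il17rb (6.07) and Chdh (5.55) were under the dim level on average, and Lrtm1 (6.97) lay near it.

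The 3 cytoplasmic β subunit genes measured passed no test. Cacnb1 had its highest values in wildtype vehicle arrays, with 8.18 and 8.34 in ATF4-deficient arsenite, 8.47 and 8.45 in ATF4-deficient vehicle, 8.52, 8.38, 8.16 and 8.47 in wildtype arsenite and 8.76 and 8.87 in wildtype vehicle arrays. Arsenite arrays lay below vehicle arrays in each genotype, and the average difference was -0.31 log2 (SE 0.08, limma adjusted p = 0.0686; 0.0437 with dim genes left out). Cacnb4, the brightest β probe set, read 8.71 to 8.90 over the 10 arrays.

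**Figure D5:**
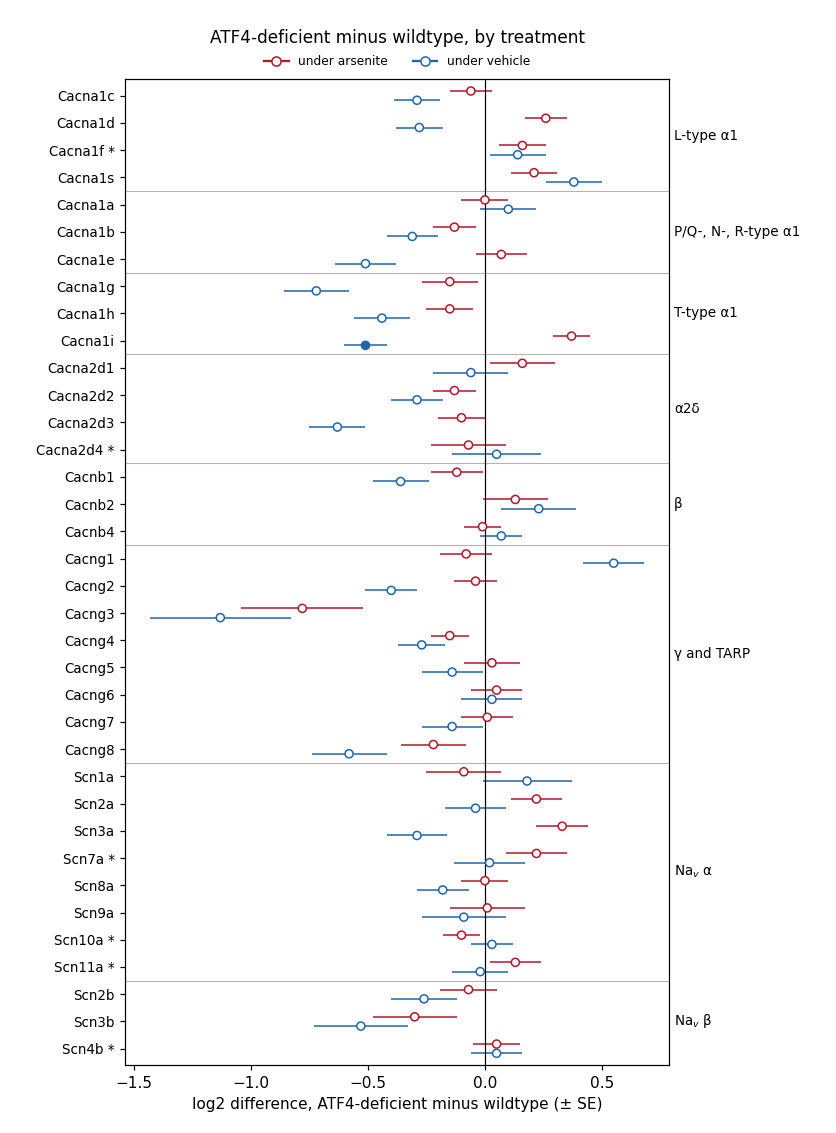
Log2 difference between ATF4-deficient and wildtype neurons, with SE, for the 36 members by subunit class, under arsenite (red) and vehicle (blue); the filled point passed an adjusted p of 0.05 in limma and an asterisk marks members under the dim level. Cacna1i under vehicle is the filled point, and Cacng3 has the largest differences and the widest errors.

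Among the γ subunits, Cacng3, which encodes TARP γ-3 of cortical AMPA receptors, had the widest range of all members. It read 9.98 and 9.12 in ATF4-deficient arsenite and 9.14 and 8.32 in ATF4-deficient vehicle arrays, against 10.40, 10.22, 10.09 and 10.61 in wildtype arsenite and 9.71 and 10.01 in wildtype vehicle arrays. Every ATF4-deficient array was below the wildtype arrays of its treatment, and within each ATF4-deficient group replicate 1 was the higher. The summed signals of astrocyte and of neuron markers were also higher in replicate 1 than in replicate 2 of each ATF4-deficient group. Those of astrocyte markers were 1640 and 1200 with arsenite and 1680 and 1250 with vehicle. Those of neuron markers were 22900 and 20000 with arsenite and 23000 and 21400 with vehicle. The part of either in the Cacng3 values was not tested. Averaged over treatments Cacng3 was 1.93-fold lower in ATF4-deficient neurons (-0.95 log2, SE 0.20, limma adjusted p = 0.0369). The difference was -0.74 (adjusted p = 0.111) with arsenite replicate 2 of the ATF4-deficient group left out, and over all arrays left out in turn it was -1.17 to -0.74, with the call kept in 3 of 10 fits (without ATF4-deficient arsenite replicate 1, ATF4-deficient vehicle replicate 1 or wildtype arsenite replicate 3). In the single comparisons it was -0.78 (SE 0.26, adjusted p = 0.276) under arsenite and -1.13 (SE 0.30, adjusted p = 0.151) under vehicle, and the arsenite difference was 0.82 (SE 0.30, adjusted p = 0.284) in ATF4-deficient and 0.47 (SE 0.26, adjusted p = 0.556) in wildtype neurons. With arsenite replicate 2 of the ATF4-deficient group left out these were -0.35 for genotype under arsenite and 1.25 for arsenite in ATF4-deficient neurons.

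The other TARP genes differed less. Cacng7, the brightest γ probe set, read 10.80 to 11.24 over the 10 arrays. Cacng8, known from hippocampal and cortical AMPA receptors, read 8.64 and 8.44 in ATF4-deficient arsenite, 8.55 and 8.42 in ATF4-deficient vehicle, a mean of 8.76 ± 0.24 (SD, n = 4) in wildtype arsenite and 9.01 and 9.12 in wildtype vehicle arrays, with an average genotype difference of -0.40 log2 (SE 0.11, limma adjusted p = 0.0892). Cacng6, Cacng8 and Cacng7 are adjacent on chromosome 7, and the average genotype differences of the flanking genes Cacng6 and Cacng7 were 0.04 and -0.07. Of these, Cacng6 lay near the dim level (6.84 on average). Cacng1, the γ subunit of skeletal muscle, lay near the dim level at 6.36 to 7.09; its interaction of -0.63 log2 (SE 0.17, adjusted p = 0.744) ran against that of most members. The summed signal of 5 skeletal muscle markers, of which Myh3 was under the dim level, was 639 to 704 in ATF4-deficient arsenite, 674 to 712 in ATF4-deficient vehicle, 638 to 685 in wildtype arsenite and 659 to 698 in wildtype vehicle arrays.

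No sodium channel gene was called in any comparison by limma, and of the 8 α genes 5 were above the dim level (Scn1a, Scn2a, Scn3a, Scn8a and Scn9a). Scn3a, an α subunit known for its high expression before birth, came nearest to a call. It read 10.74 and 10.66 in ATF4-deficient arsenite and 10.10 and 10.19 in ATF4-deficient vehicle arrays, against 10.50, 10.33, 10.19 and 10.47 in wildtype arsenite and 10.56 and 10.32 in wildtype vehicle arrays. As with Cacna1d, ATF4-deficient neurons were above wildtype under arsenite and below wildtype under vehicle with no overlap. The arsenite difference was 0.56 log2 (SE 0.13, adjusted p = 0.0652; 0.0405 with dim genes left out) in ATF4-deficient neurons and -0.07 (SE 0.11) in wildtype neurons, and the interaction was 0.62 (SE 0.17, adjusted p = 0.744). With an array left out the rise in ATF4-deficient neurons was 0.51 to 0.60 (adjusted p = 0.058 to 0.334), and it was 0.60 (adjusted p = 0.206) with arsenite replicate 2 of that genotype left out. Scn2a, its neighbour on chromosome 2 and the brightest α probe set, read 10.37 to 10.89 and had an interaction of 0.25 (SE 0.17). Of the β genes, Scn3b was the brightest and read 10.46 and 10.10 in ATF4-deficient arsenite, 10.23 and 10.20 in ATF4-deficient vehicle, 10.82, 10.38, 10.25 and 10.87 in wildtype arsenite and 10.64 and 10.84 in wildtype vehicle arrays, with an average genotype difference of -0.42 (SE 0.13, adjusted p = 0.155).

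Genes that work with these channels were counted in lists. Of 15 sodium channel partners and axon initial segment genes, and of 4 genes of the sodium leak channel complex, 0 were called by limma in each of the 7 comparisons. Of 14 calcium channel partners and inhibitors, Rem2, a small GTPase that inhibits calcium channels, fell by 0.63 log2 with arsenite in wildtype neurons (SE 0.11, adjusted p = 0.0394), beside -0.16 (SE 0.13) in ATF4-deficient neurons. It read 7.10 and 7.28 in ATF4-deficient arsenite and 7.41 and 7.29 in ATF4-deficient vehicle arrays, against 7.25, 7.02, 7.00 and 7.27 in wildtype arsenite and 7.85 and 7.68 in wildtype vehicle arrays, so the wildtype vehicle arrays alone stood apart. Stac, an adaptor of L-type channels and under the dim level on average (6.52), fell on average over genotypes (-0.35, SE 0.08, adjusted p = 0.035). Of 12 genes of calcium signalling to the nucleus, the kinase gene Camkk2 fell with arsenite in wildtype neurons (-0.59, SE 0.10, adjusted p = 0.0338). Camkk2 was also lower in ATF4-deficient neurons on average over treatments (-0.42, SE 0.07, adjusted p = 0.0194), and Creb1 rose with arsenite on average over genotypes (0.40, SE 0.08, adjusted p = 0.0203). On average over genotypes Camkk2 also fell with arsenite (-0.41, SE 0.07, limma adjusted p = 0.0137), as did Rem2 (-0.40, SE 0.08, adjusted p = 0.0311). With arsenite replicate 2 of the ATF4-deficient group left out the Camkk2 differences were -0.59 for arsenite in wildtype neurons and -0.48 for each average. Those of Rem2 (-0.63 and -0.44), Stac (-0.35) and Creb1 (0.35) did not pass.

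Among the AMPA receptor and calcium clearance genes, each list held a call for arsenite in ATF4-deficient neurons. Gria4, an AMPA receptor pore subunit, rose there by 0.48 log2 (SE 0.10, limma adjusted p = 0.0398), the single call of 8 genes in that comparison, and Gsg1l, an AMPA receptor auxiliary subunit, rose on average over genotypes (0.41, SE 0.09, adjusted p = 0.036). The calcium-binding protein gene Calb1 fell in ATF4-deficient neurons by 0.73 (SE 0.12, adjusted p = 0.0236), the single call of 12 clearance and buffer genes in that comparison. On average over genotypes Calb1 also fell (-0.51, SE 0.08, adjusted p = 0.00936) and Gria4 also rose (0.34, SE 0.06, adjusted p = 0.0181). With arsenite replicate 2 left out the differences in ATF4-deficient neurons were 0.48 for Gria4 and -0.74 for Calb1, and neither passed. The averages were then 0.45 for Gsg1l, 0.34 for Gria4 and -0.51 for Calb1, of which those of Gsg1l and Gria4 did not pass. Calb1 read 8.76 and 8.79 in ATF4-deficient arsenite and 9.50 and 9.51 in ATF4-deficient vehicle arrays, and 9.21 to 9.76 over the wildtype arrays.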

How the data were processed

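Each of the 10 arrays measured RNA from 1 sample. The values the authors deposited are log2 intensities summarised by robust multiarray average in Partek 6.6, per the submitters' processing notes. The array medians were 6.75 to 6.81, and normalisation between arrays can reduce a change shared by most genes. No source used here gives the array's genome build.

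Of 41345 probe sets, 23521 had 1 gene symbol in GEO's platform annotation, 1814 several and 16010 none; 23328 matched the GRCm38.p6 annotation by Entrez identifier. The probe set with the highest mean stood for each of 22180 genes, with no filter. A limma model (limma 3.58.1, R 4.3.3) with a mean per group, 6 residual degrees of freedom and a prior SD of 0.124 log2 gave 7 contrasts, with Benjamini-Hochberg adjustment over all genes and a threshold of 0.05. It was tested on simulated data with 200 changed genes. The levels of different probe sets are not comparable as amounts, so "brightest" describes a probe set's signal and not a gene's amount.

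Groups and replicate numbers came from the titles. The files hold no detection calls, scan dates or batches, and the number of arrays limits the precision. Members and lists were chosen with earlier results of these data known. Levels are given for members called in any comparison, the member with the largest difference in each, the brightest of each subunit class and Atf4; other members and the genes near Atf4 were named after their values were seen. Alternatives were the mean of a gene's probe sets, dim genes left out, equal array medians, array weights, a trended robust prior, only the groups compared, a replicate block and each array left out.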

Additional observations from a re-analysis of the deposited data

Results flagged for a closer look

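Opposite movement in the groups, with no overlap on any array, was seen for 4 members, and the interaction that tests it did not pass in limma for any of them. The share of all genes with such movement was not counted, so the 4 are not a result about channel genes as a set. Cacna1i had an interaction of 0.88 log2 (SE 0.12, adjusted p = 0.34), with arsenite arrays above vehicle arrays in ATF4-deficient neurons and below them in wildtype neurons. Cacng1 ran the other way, with an interaction of -0.63 (SE 0.17, adjusted p = 0.744). For Cacna1d (0.54, SE 0.14, adjusted p = 0.709) and Scn3a (0.62, SE 0.17, adjusted p = 0.744), ATF4-deficient arrays lay above wildtype arrays under arsenite and below them under vehicle.

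Among the 36 sets of 4 wildtype arsenite values, 2 had an array far from the other 3, where chance flags about 1 in 20 sets. Replicate 2 was the highest for Cacna2d2, with a gap of 0.873 of the group's range, and replicate 3 was the lowest for Cacng7, with a gap of 0.925.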

How the results depend on the processing

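The signs were followed only for member differences with a small unadjusted limma p or the largest size in a comparison. These all kept their sign under every alternative run, which their selection favoured. The signs of smaller differences were not checked. Counts of called members moved. With each array left out in turn, the count was 0 to 3 for the ATF4-deficient arsenite response (3 with all arrays), 0 for the wildtype arsenite response (1), 0 to 2 for the genotype difference under vehicle (1), 1 to 3 for the average arsenite response (2) and 0 to 3 for the average genotype difference (3). The genotype difference under arsenite and the interaction had 0 members under every setting that gave a value. With only the compared groups in the model the count was 0 for each arsenite response and for the genotype difference under vehicle, where fewer arrays set the spread; this setting gives no value for the interaction and the averages. With dim genes left out fewer genes were tested, 13518 in all and 30 of them members. The count was then 5 for the ATF4-deficient arsenite response, 3 for the genotype difference under vehicle and 5 for the average arsenite response. The calls over all genes rose as well in that setting. They were 199 higher and 140 lower, 59 higher and 131 lower, and 468 higher and 416 lower, in the same order. The mean of a gene's probe sets, equal medians, array weights and a trended robust prior each gave 2 for the ATF4-deficient arsenite response, without Cacna1e. Array weights and a trended robust prior each gave 3 for the genotype difference under vehicle, and the cause was not tested. The replicate block gave 0 for the wildtype arsenite response (Cacna1i had an adjusted p of 0.129), 2 for the genotype difference under vehicle (Cacna2d3 and Cacng1, with Cacna1i at 0.0669) and 5 for the average genotype difference (Cacna1h, Cacna1s, Cacna2d3, Cacng3 and Cacng8, with Cacna1g at 0.0512). Deviations of same-numbered arrays correlated at 0.403 between the 2 ATF4-deficient groups and at -0.056 to 0.386 between the other pairs of groups. The labels name no pairing, so the main model has no block. Its p-values take no account of any origin that same-numbered samples may share, and such sharing was not tested.

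Over all genes, the called count of 107 for the wildtype arsenite response was 11 to 186 under the other settings and 0 to 75 with an array left out. The matching counts were 256, 0 to 339 and 50 to 200 for the ATF4-deficient response, 96, 0 to 228 and 0 to 99 for the genotype difference under vehicle, 76, 4 to 92 and 1 to 64 for that under arsenite, 682, 599 to 884 and 242 to 654 for averaged arsenite, and 404, 374 to 528 and 58 to 377 for averaged genotype. With equal medians the wildtype arsenite split of 51 higher and 56 lower became 26 and 50.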
